A study of Mus musculus with 4 samples.

Results

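The 9 genes described here encode scaffold proteins of the sarcomere, the contractile unit of striated muscle: Ttn, Neb, Myom1, Myom2, Ldb3, Actn2, Actn3, Xirp1 and Des. They were chosen by name, and every row that carries their symbol in either of the deposited peak lists was used. All 9 are among the 7235 genes that the lists name. The data are chromatin immunoprecipitation sequencing (ChIP-seq) of MyoD, a bHLH transcription factor of the muscle lineage, in mouse myotubes, the fused cells that myoblasts form on differentiation. The cells were grown from primary myoblasts of 2-week-old C57BL/6 mice. After 5 days in differentiation medium with 2% horse serum, they spent another 24 hours in that medium, either with or without pyruvate. Each condition had 1 MyoD library (antibody SC-760) and 1 input, and each MyoD library has 1 peak list, with 11907 peaks where the title gives pyruvate as present and 19338 where it gives it as absent. The input samples were not analysed here.

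With 1 library per condition there was no replicate, so no difference below has a test or a p-value, and condition and library cannot be told apart. The labels do not say whether several cultures or animals were pooled. Read depth is unknown and the fold enrichment column holds no value other than 0, so peak position and peak width were the measures that remained. A peak missing from a list may lie below that list's calling threshold. Which condition a list stands for was taken from its sample title, and no value in the files checks it; the names of the deposited files could be read the other way round. Peak lists carry no expression values, so the myotube label was not checked against marker genes.

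As background, the Z-disc anchors thin filaments of neighbouring sarcomeres through alpha-actinin, and the M-band crosslinks thick filaments through myomesin. Titin runs from the Z-disc to the M-band as a molecular spring, nebulin runs along the thin filament, and desmin filaments tie Z-discs of neighbouring myofibrils together. MyoD binds E-boxes, short motifs with the letters CANNTG, as a dimer with E proteins, and activates many genes of differentiated muscle.

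All 9 genes had at least 1 MyoD peak in the body or a 2-kb flank in both lists. Across the genes that the lists name, 65.0% had such a peak in the list with pyruvate, 90.0% in the list without pyruvate and 55.1% in both. A gene is named in the lists because it has a peak in at least 1 of them. Among 21900 RefSeq protein-coding genes, 13.9% had a peak in both lists, with genes listed under an older symbol counted as having none. The 9 genes held 17 peaks in the list with pyruvate and 18 in the list without pyruvate. With peaks of at least 250 bases alone, 12 of these were left with pyruvate and 9 without pyruvate, and Actn2 and Ldb3 then had a peak in the list with pyruvate only, so that 7 genes had one in both. The count was also 7 when the list without pyruvate was limited to its 11907 widest peaks, as many as the other list holds.

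Sequences of 2 start regions are shown because a MyoD peak of both lists lies at the start of Ttn and in a flank of Des. They are RefSeq promoter windows of GRCm38.p6, from 250 bases before to 50 bases after the RefSeq start, written 5′ to 3′, with every CANNTG match in capitals. The peaks are in mm9, so the windows were not placed within the peaks. The Ttn window is chr2:76982498-76982797 on the minus strand, and the Des window is chr1:75360042-75360341 on the plus strand.
Ttn: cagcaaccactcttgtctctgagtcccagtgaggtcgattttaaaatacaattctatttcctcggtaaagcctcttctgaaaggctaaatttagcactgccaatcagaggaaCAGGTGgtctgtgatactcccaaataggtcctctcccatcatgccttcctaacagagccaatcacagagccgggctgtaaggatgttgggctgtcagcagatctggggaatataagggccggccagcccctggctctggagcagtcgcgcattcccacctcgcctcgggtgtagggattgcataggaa
Des: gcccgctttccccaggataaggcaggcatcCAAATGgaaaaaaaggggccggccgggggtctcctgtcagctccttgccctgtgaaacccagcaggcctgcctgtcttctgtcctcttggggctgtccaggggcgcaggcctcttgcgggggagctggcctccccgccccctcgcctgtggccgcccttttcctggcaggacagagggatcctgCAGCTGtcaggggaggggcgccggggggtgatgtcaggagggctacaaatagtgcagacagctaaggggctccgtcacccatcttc

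The Ttn window held 1 match, CAGGTG, whose first base lies at -138 from the RefSeq start. The Des window held 2, one spelled CAAATG at -220 and one at -36 spelled CAGCTG. Both strands were searched. A match of CANNTG on one strand is also one on the other, the same is true of CAGCTG, and CACCTG was counted together with its reverse complement, which is the form found at Ttn. The last 2 motifs are cases of the general one. Of 32851 promoter windows of this length, 72.3% held at least 1 CANNTG. The share with CAGCTG was 16.3%, and that with CACCTG on either strand was 20.2%. RefSeq windows were matched for 5 of the 9 genes, 6 windows in all, and 4 of these held a CANNTG. Windows of Actn2 and Myom1 held 3 matches each, none of them of the 2 narrower motifs. The 2 windows of Ldb3, which overlap each other, held none. A match describes letters in a window and does not mark a bound site.

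Ttn (ENSMUSG00000051747, minus strand, chr2:76542037-76820604 in mm9, 279 kb) encodes titin, the giant spring of the sarcomere. Its peaks stood in a single cluster at the start of the gene. In the list with pyruvate there were 2: one of 720 bases that spans the start site (chr2:76820460-76821180) and one of 349 bases centred 672 bases inside the gene (chr2:76819758-76820107). In the list without pyruvate there were 3: one of 337 bases at the inner position (chr2:76819767-76820104), and 2 upstream of the start, of 149 bases (chr2:76820681-76820830) and 247 bases (chr2:76820890-76821137). The single wide peak of the list with pyruvate covers both upstream peaks of the list without pyruvate. It also reaches 144 bases into the gene body, which the upstream peaks of the list without pyruvate do not. Its width is at the 99.4 percentile of its own list, whereas the 2 narrower peaks are at the 2.52 and 53.1 percentiles of theirs. A further peak, 234 bases wide in the list with pyruvate and 259 bases in the list without pyruvate, lies at the outer edge of the 2-kb upstream flank and is assigned to no gene. No other peak of either list fell in the remaining body of Ttn.

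Neb (ENSMUSG00000026950, minus strand, chr2:51992167-52194318, 202 kb) encodes nebulin, the ruler-like protein of the thin filament. Both lists had a peak at 9.7% of its body, 411 bases wide in the list with pyruvate (chr2:52174497-52174908) and 482 bases wide in the list without pyruvate (chr2:52174498-52174980). Both also had one centred 3522 bases from the start in the list with pyruvate (264 bases) and 3520 bases in the list without pyruvate (239 bases). A further peak of 280 bases (chr2:52191234-52191514), centred 2944 bases from the start, was in the list with pyruvate only. The nearest peak of the list without pyruvate was 317 bases away, which is the shared peak beside it.

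Myom1 and Myom2 encode myomesin 1 and myomesin 2, the crosslinkers of the M-band. Myom1 (ENSMUSG00000024049, plus strand, chr17:71368861-71476196, 107 kb) had 1 peak in both lists, 413 bases wide in the list with pyruvate (chr17:71388136-71388549) and 389 bases wide in the list without pyruvate (chr17:71388172-71388561), at 18.2% of the body in each. The list without pyruvate held a second peak of 240 bases (chr17:71398671-71398911), and the list with pyruvate had no peak within 10122 bases of it. All peaks of Myom1 are also assigned to a long unnamed gene that overlaps it, so the files do not tie them to Myom1 alone.

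Myom2 (ENSMUSG00000031461, plus strand, chr8:15057653-15133541, 75.9 kb) had the most peaks of the 9 genes in the list with pyruvate, 4, and 3 in the list without pyruvate, as many as Ttn and Xirp1. At 3 places in the body, centred 2454, 8716 and 15348 bases from the start in the list with pyruvate, both lists had a peak. Their widths were 242, 169 and 355 bases in the list with pyruvate and 252, 317 and 375 bases in the list without pyruvate. The fourth, of 194 bases at chr8:15056937-15057131, lies in the upstream flank and was in the list with pyruvate only, and the list without pyruvate had its closest peak 2892 bases away. Its width is at the 19.0 percentile of its list.

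**Figure D1:**
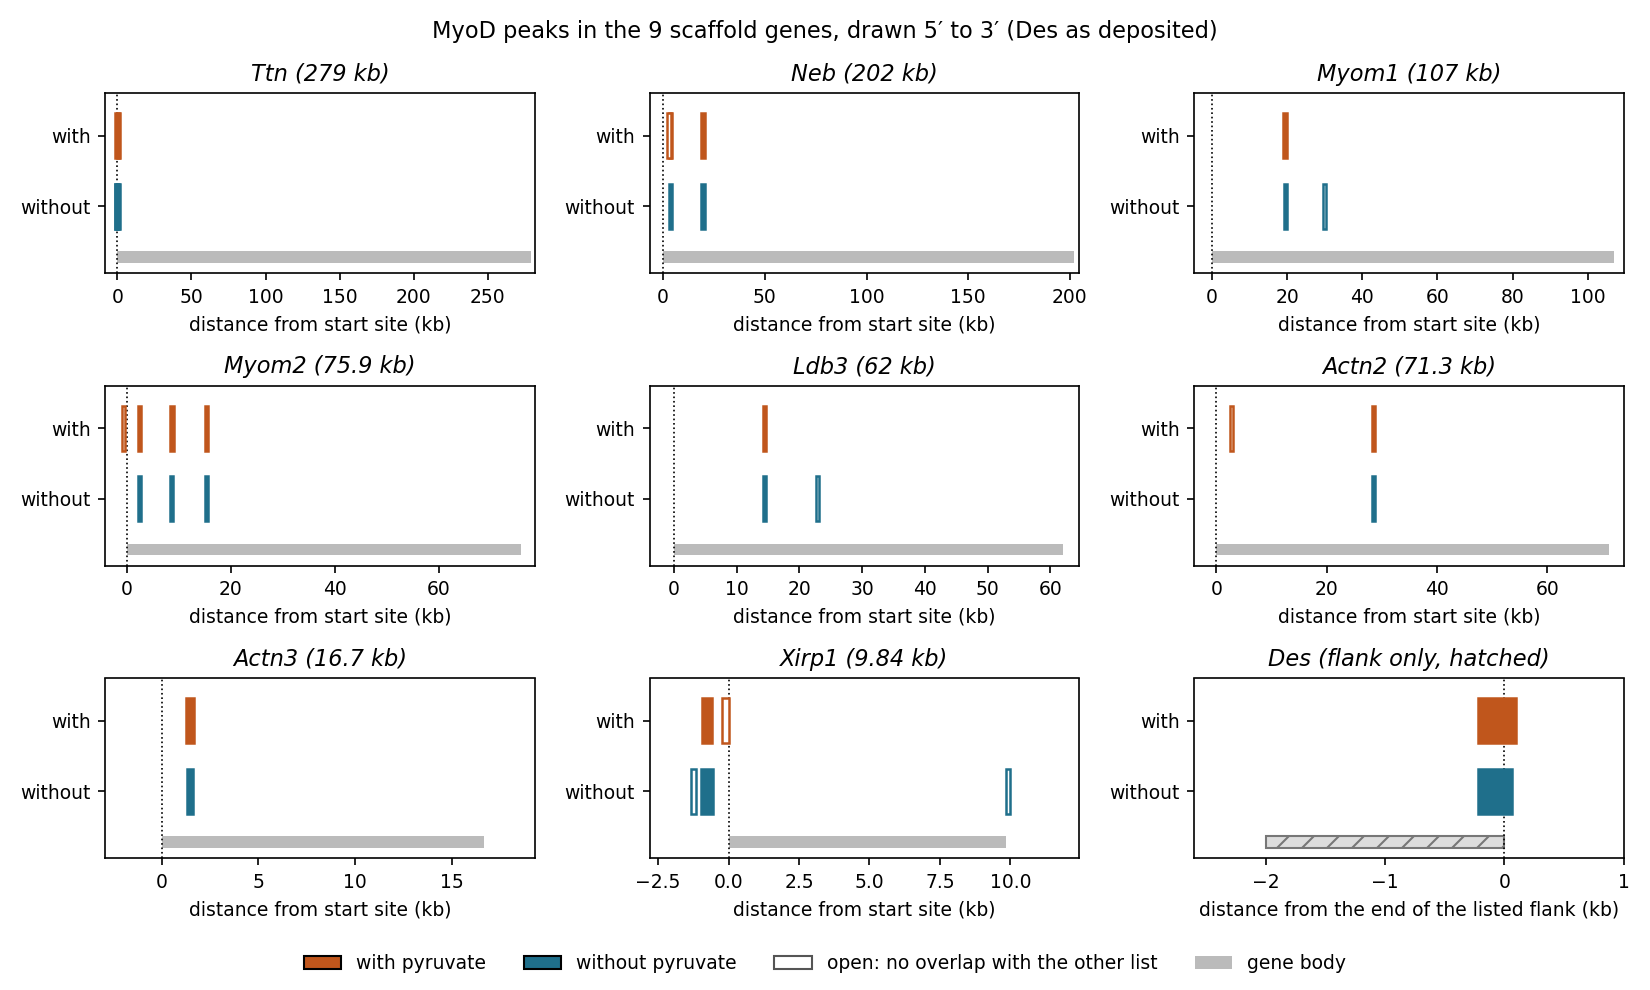
Peaks in each of the 9 genes, by distance from the start site in kb (for Des, from the end of the listed flank), with the list with pyruvate above the list without pyruvate. Filled boxes overlap a peak of the other list and open boxes do not, the grey bar is the gene body, and boxes narrower than 0.8% of an axis are widened to be visible. Peaks inside the long genes lie toward the 5′ end, and most boxes are filled.

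At the Z-disc, Ldb3 (ENSMUSG00000021798, minus strand, chr14:35339885-35401867, 62.0 kb) encodes a PDZ-LIM protein, also known as Cypher or ZASP, that binds alpha-actinin. Both lists had a peak at 23.3% of its body, 253 bases wide in the list with pyruvate (chr14:35387298-35387551) and 207 bases wide in the list without pyruvate (chr14:35387346-35387553). The list without pyruvate had a second of 169 bases (chr14:35378920-35379089), at the 11.4 percentile of width in its list.

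Actn2 and Actn3 encode the alpha-actinins of skeletal muscle, the main crosslinkers of actin at the Z-disc, and Actn3 is known as the form of fast glycolytic fibres. Actn2 (ENSMUSG00000052374, minus strand, chr13:12361693-12433027, 71.3 kb) had a peak deep in its body in both lists, 297 bases wide in the list with pyruvate (chr13:12404377-12404674) and 150 bases wide in the list without pyruvate (chr13:12404456-12404606). The narrower of this pair is at the 2.76 percentile of its list. A peak of 186 bases (chr13:12430185-12430371), 2656 bases from the start, was in the list with pyruvate only. Actn3 (ENSMUSG00000006457, minus strand, chr19:4861223-4877909, 16.7 kb) had a single peak in both lists, 425 bases wide in the list with pyruvate (chr19:4876252-4876677) and 324 bases wide in the list without pyruvate (chr19:4876292-4876616). Its nearest base to the start was 1232 bases away in the list with pyruvate and 1293 bases away in the list without pyruvate. The 2 alpha-actinin genes thus differed in position, with the shared peak centred 1444 bases from the start in Actn3 and 28502 bases in Actn2 in the list with pyruvate.

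Xirp1 (ENSMUSG00000079243, minus strand) encodes Xin, an actin-binding repeat protein of striated muscle. Its body was taken as the interval between its 2 listed flanks, chr9:119922873-119932716 (9.84 kb). Both lists had a peak upstream of the start, 373 bases wide in the list with pyruvate (chr9:119933293-119933666) and 422 bases wide in the list without pyruvate (chr9:119933278-119933700). The list with pyruvate had a second peak of 248 bases that spans the start (chr9:119932704-119932952). The list without pyruvate instead had one of 195 bases further upstream (chr9:119933863-119934058), and one of 146 bases at the 3′ end of the gene (chr9:119922742-119922888). The last is narrow for its list, at the 1.85 percentile.

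Des (ENSMUSG00000026208, plus strand) encodes desmin, the intermediate filament protein of muscle. The files list no body for it, only a flank at chr1:75354904-75356903, and do not show on which side of the gene that flank lies. The peak there was 315 bases wide in the list with pyruvate (chr1:75356682-75356997) and 280 bases wide in the list without pyruvate (chr1:75356685-75356965). It ran past the flank's end by 94 bases in the list with pyruvate and 62 bases in the list without pyruvate. Another peak, assigned to no gene, was in both lists at lower coordinates, 318 bases wide in the list with pyruvate (chr1:75341269-75341587) and 563 bases wide in the list without pyruvate (chr1:75341131-75341694).

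**Figure D2:**
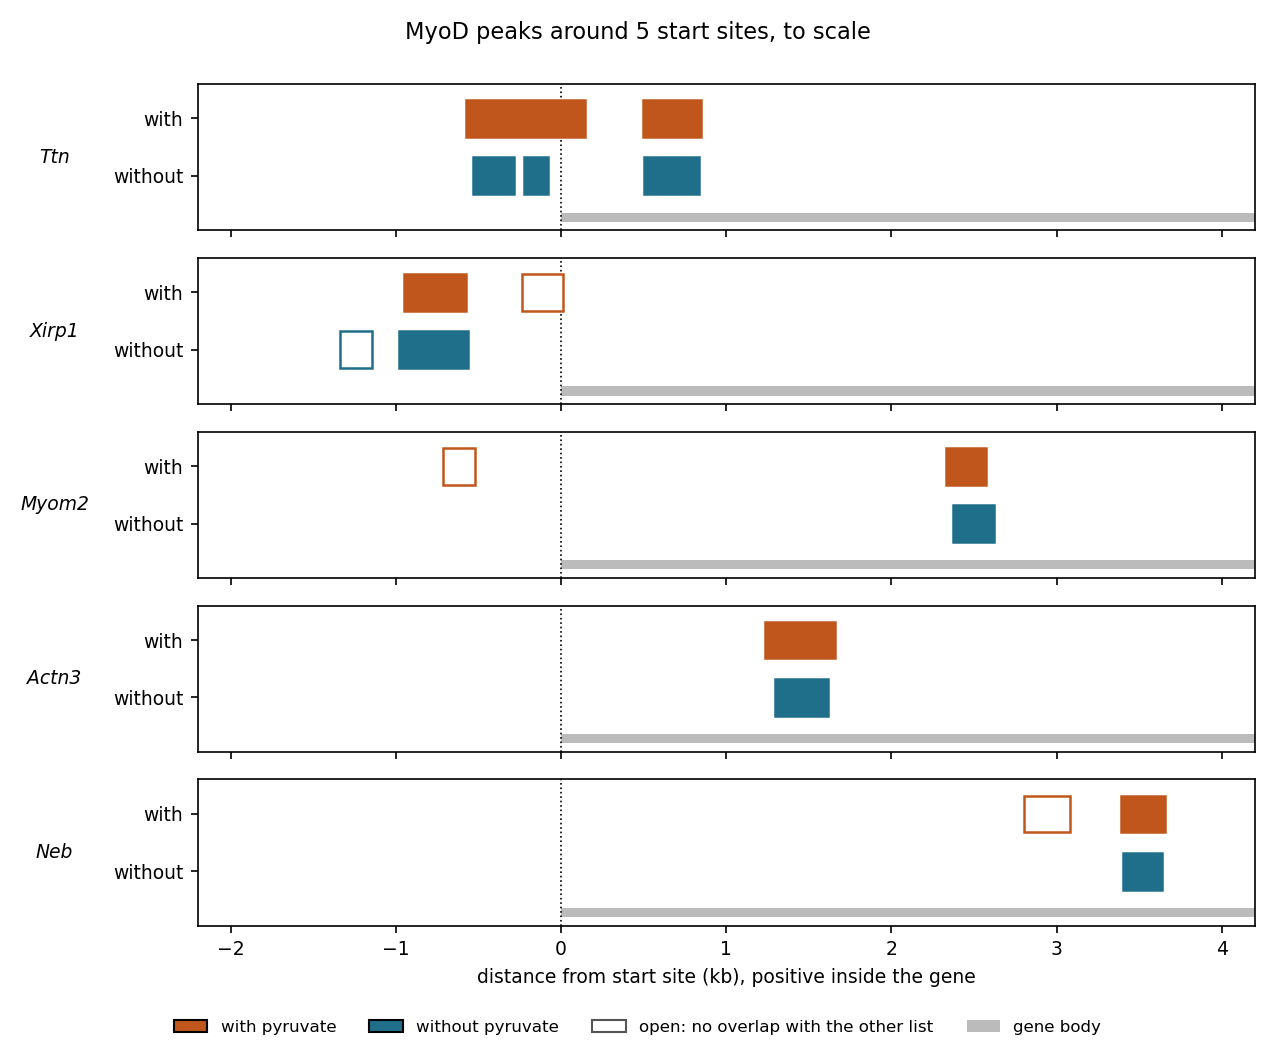
Peaks around the start sites of Ttn, Xirp1, Myom2, Actn3 and Neb, to scale, by distance from the start in kb, with the list with pyruvate above the list without pyruvate in each panel. Filled boxes overlap a peak of the other list and open boxes do not. The Ttn peak of 720 bases faces 2 separate peaks. Xirp1, Myom2 and Neb each show 1 open box in the upper lane, and Xirp1 also shows 1 in the lower lane.

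Of the peaks at the 9 genes, 13 of 17 in the list with pyruvate overlapped a peak of the other list by at least 1 base, or 76.5% (95% exact Clopper-Pearson interval 50.1 to 93.2). In the list without pyruvate 14 of 18 did, or 77.8% (52.4 to 93.6). Over all peaks assigned to a gene the shares were 71.5% in the list with pyruvate and 46.9% in the list without pyruvate. In the list with pyruvate the share at the 9 genes was thus close to that of all genes. In the list without pyruvate it was higher, but the interval cleared the value for all genes only under some settings. Its lower end, 52.4%, lay above that value here, and also with centres within 100 bases and at equal list length. It lay below with a reciprocal overlap of 50% (12 of 18, lower end 41%, against 44.5% of all), with peaks of at least 250 bases (7 of 9, 40% against 47.1%) and with bodies alone (10 of 13, 46.2% against 46.7%). These intervals cover counting error only and treat peaks of 1 gene as separate, and all 9 genes were chosen as muscle genes with results of these data known.

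The 4 peaks without a partner in the list with pyruvate lay in Neb, Myom2, Actn2 and Xirp1, with their centres 2944, -619, 2749 and -112 bases from the start (negative values are upstream). In the list without pyruvate the 4 lay in Myom1, Ldb3 and Xirp1, which held 2, with centres 29930, 22862, 9901 and -1244 bases from the start. Peaks without a partner were 186 to 280 bases wide (median 221) in the list with pyruvate and 146 to 240 bases wide (median 182) in the list without pyruvate. Peaks with one had medians of 349 bases in the list with pyruvate and 298.5 bases in the list without pyruvate, and the ranges of the 2 kinds overlap.

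Promoter-proximal here means that a peak comes within 2 kb of the start, or touches a flank of unknown side. Of the 9 genes, 4 had one in both lists: Ttn, Actn3, Xirp1 and Des. Myom2 had one in the list with pyruvate only, which is lost with peaks of at least 250 bases alone. No gene had one in the list without pyruvate only, and Neb, Myom1, Ldb3 and Actn2 had none. The Myom2 call also depends on the window. A Myom2 peak of both lists lay just beyond 2 kb, 2333 bases from the start with pyruvate and 2370 bases without pyruvate. With a 10-kb window Myom2 had a peak in both lists. Actn2, with its peak 2656 bases from the start, then had one in the list with pyruvate only. Over all genes named in the lists, 24.7% had a proximal peak in the list with pyruvate, 36.3% in the list without pyruvate and 18.7% in both. Such a peak was in the list with pyruvate only for 6.01% and in the list without pyruvate only for 17.7%. Among RefSeq protein-coding genes 4.11% had one in both lists. Counting located start sites alone, Des drops out and 3 of the 9 genes remain in both lists, beside 10.4% of all genes named.

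The peaks inside gene bodies lay toward the 5′ end. In each list 12 peaks had their centre inside a body, in 7 genes, and all 12 of each list lay in the first 50% of it. Des has no listed body and no Xirp1 peak had its centre inside the gene. The narrow Xirp1 peak at the 3′ end overlaps the body by 15 bases and was not counted. The deepest was that of Actn2, at 40.0% of the body in the list with pyruvate and 39.9% in the list without pyruvate. Of peaks inside all genes with a body of at least 10 kb, 52.6% lay in the first 50% in the list with pyruvate and 53.7% in the list without pyruvate. The median position at these 7 genes was 9.18% of the body in the list with pyruvate and 14.8% in the list without pyruvate. For all such genes it was 47.4% in the list with pyruvate and 46.1% in the list without pyruvate. This measure was chosen after the positions were seen, and most of these peaks are the same sites in both lists.

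**Figure D3:**
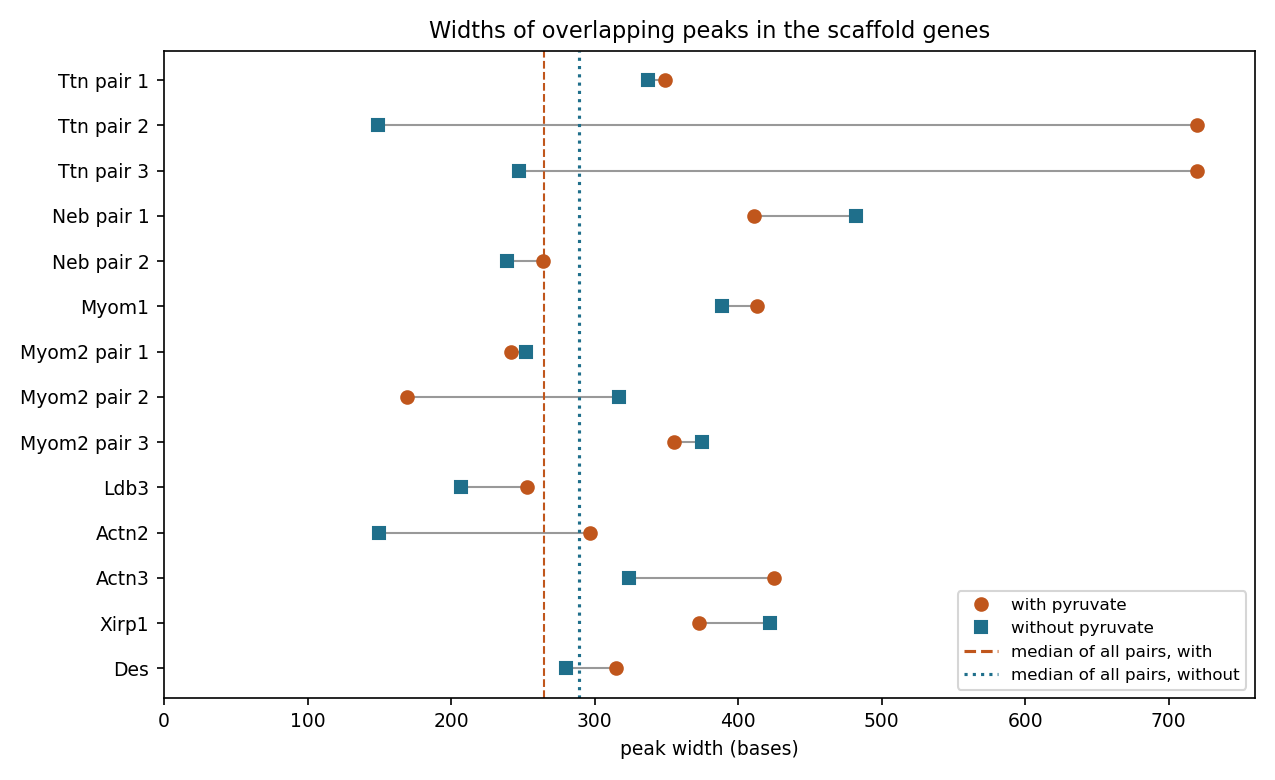
Widths in bases of the 14 pairs of overlapping peaks at the 9 genes, with circles for the list with pyruvate and squares for the list without pyruvate, and lines at the medians of all pairs (265 bases with and 289 bases without pyruvate). The circle lies to the right of the square in 9 of 14 pairs, and the longest spans are the 2 Ttn pairs that share the peak of 720 bases.

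The overlapping peaks formed 14 pairs, of which 9 were wider in the list with pyruvate and 5 in the list without pyruvate. Over all 8592 pairs, 38.2% were wider in the list with pyruvate, and the median difference (with minus without pyruvate) was -22 bases, with quartiles of -73 and 30. At the 9 genes the median difference was 24.5 bases, with quartiles of -17.5 and 87.2, so the quartile ranges overlap. The differences at Ttn, 571 and 473 bases, rest on the single peak that faces 2. Next came Actn2 at 147 bases and Actn3 at 101 bases. The most negative were -148 bases at the middle peak of Myom2 and -71 bases at the inner peak of Neb. The labels give the same approximate library fragment size, 250 bp with adaptors, for both libraries. Read depth is unknown, and its part in the widths was not tested.

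Per length the 9 genes spread widely, on the scale of peaks per 10 kb of body plus flanks. Ttn had the lowest density in the list with pyruvate, 0.0708, and Neb in the list without pyruvate, 0.097. In the list with pyruvate the order upward from Ttn was Myom1 (0.0898), Neb (0.146), Ldb3 (0.152), Actn2 (0.265), Actn3 (0.483), Myom2 (0.501) and Xirp1 (1.44). In the list without pyruvate it ran from Neb through Ttn (0.106), Actn2 (0.133), Myom1 (0.18), Ldb3 (0.303), Myom2 (0.376) and Actn3 (0.483) to Xirp1 (2.17). With 1 to 4 peaks a gene, these orders rest on few peaks and on gene length, and they change with the settings. With bodies alone Ttn was lowest in the list without pyruvate as well, at 0.0359 beside 0.0989 for Neb, and Xirp1 stood at 1.02 in both lists. The 2 Xirp1 values rest on different peaks that do not overlap. They are the peak spanning the start with pyruvate (12 bases in the body) and the 3′ peak without pyruvate (15 bases). With peaks of at least 250 bases Myom2 was at 0.125 in the list with pyruvate, and Xirp1 was at 0.722 in both. Ldb3 and Actn2 then had no peak in the list without pyruvate, nor did they at equal list length. The median over 5094 genes with a body of at least 10 kb was 0.125 in the list with pyruvate (quartiles 0 and 0.323) and 0.241 in the list without pyruvate (0.115 and 0.442). Ttn stood at the 40.0 percentile in the list with pyruvate and at the 23.1 percentile in the list without pyruvate. Myom2 stood at the 86.4 percentile in the list with pyruvate and at the 68.6 percentile in the list without pyruvate.

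**Figure D4:**
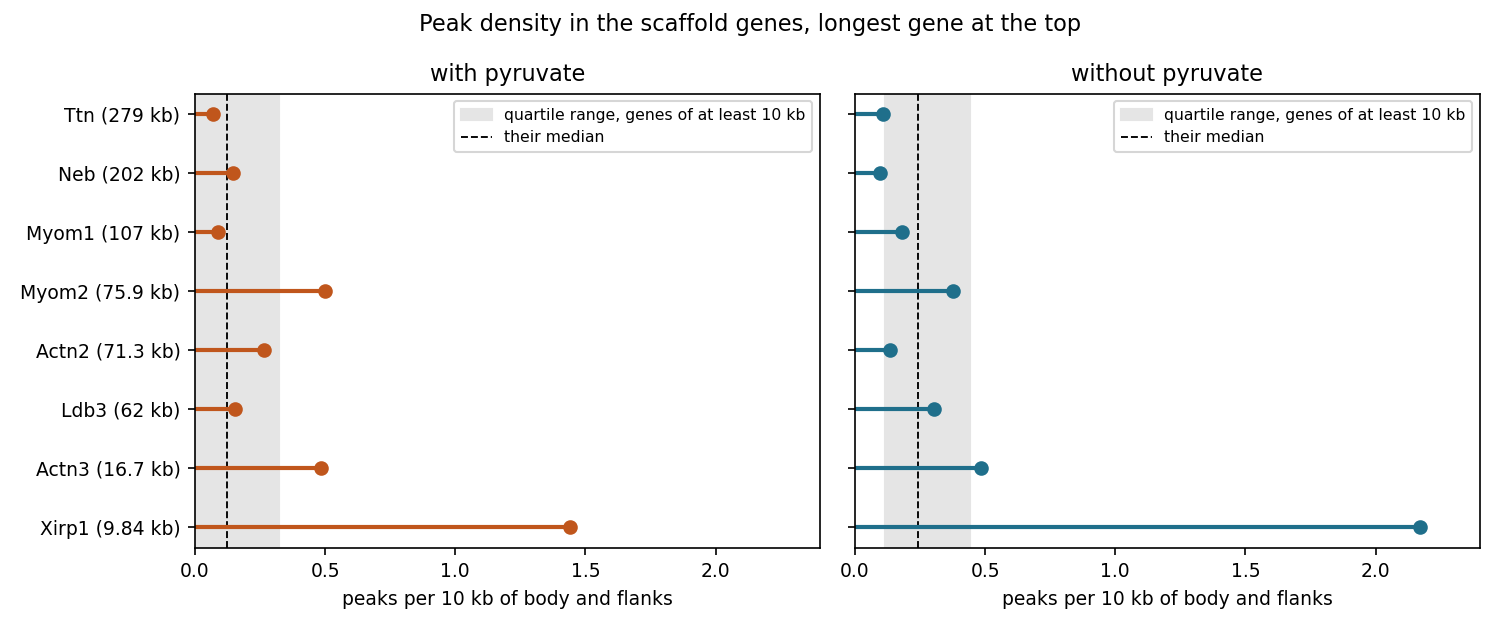
Peaks per 10 kb of body and flanks in the 8 genes with a located body, longest gene at the top, for the list with pyruvate (left) and without pyruvate (right). The grey band is the quartile range and the dashed line the median of 5094 genes of at least 10 kb; Xirp1, at 9.84 kb, lies beyond the band in both panels and is shorter than the genes of the band.

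Genes whose pattern was most like that of a member were found for members with at least 3 peaks in a list, by the Euclidean distance over log2 of the peak counts plus 1 (each list, and overlapping peaks) and log2 of the body length. Over the 2 lists the nearest to Ttn were Stk32b, 2810055G20Rik and Ppp3ca, at distances of 0.0433 to 0.0579, each with 2 peaks in the list with pyruvate, 3 in the list without pyruvate and bodies of 268 to 270 kb. Vps8, an unnamed gene and Cblb were nearest to Neb (0.132 to 0.196). For Myom2 they were Slc44a3, Mypn and Srl (0.0596 to 0.301). Of these, Mypn encodes myopalladin, a titin-associated Z-disc protein, and had 4 peaks in the list with pyruvate and 3 in the list without pyruvate, as Myom2 did. For Xirp1, Khk, Dnajb5 and Mylk2 were nearest (0.416 to 0.485), each with 2 peaks in both lists. The comparison covered 5792 genes with a listed body, or 5793 for Xirp1.

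Within 20 kb of the regions of the 9 genes, and not assigned to these genes, there were 8 further peaks in the list with pyruvate and 15 in the list without pyruvate. Of these, 7 in each overlapped the other list. That is 87.5% with pyruvate and 46.7% without pyruvate, beside 71.8% and 44.2% of all peaks, so the larger number without a partner in the list without pyruvate is near the background. The list without pyruvate alone had 3 of these around Ldb3, 160 to 209 bases wide, and 2 beyond the 3′ end of Myom1. The 1 peak seen only in the list with pyruvate stood 9561 bases beyond the region of Xirp1 and was 247 bases wide. The Ttn peak counted here in the list without pyruvate (chr2:76822595-76822854) starts inside the upstream flank, which ends at 76822604. It was left out of the counts for Ttn because the files assign it to no gene.

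Another 53 genes of the same structures were described beside the 9, of which 40 are named in the lists, 2 of them under an older symbol. Of the 53, 29 had a peak in both lists, 8 in the list with pyruvate only, 3 in the list without pyruvate only and 13 in neither. Among RefSeq protein-coding genes 13.9% had a peak in both lists, 2.37% in the list with pyruvate only and 8.43% in the list without pyruvate only. Older symbols were matched for the 53 genes but not for the RefSeq genes, so these RefSeq shares may be too low beside them. Of the 40 that the lists name, 72.5% had a peak in both lists, 20% in the list with pyruvate only and 7.5% in the list without pyruvate only, beside 55.1%, 9.95% and 35.0% of all genes named. With peaks of at least 250 bases alone the order turned, to 5 of the 53 genes in the list with pyruvate only and 7 in the list without pyruvate only. At equal list length it held, with 9 in the list with pyruvate only and 3 in the list without pyruvate only.

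Of 28 Z-disc genes 14 had a peak in both lists. Mypn had 4 peaks in the list with pyruvate (234 to 521 bases) and 3 in the list without pyruvate (264 to 566 bases). Flnc, which encodes filamin C, had peaks of 269 and 372 bases with pyruvate and of 242 and 550 bases without pyruvate. Ankrd1, which encodes a stress-responsive ankyrin-repeat protein that binds titin, had a single flank peak of 410 bases with pyruvate and 473 bases without pyruvate. The LIM-domain genes Fhl2 and Fhl3, and Synpo2, an actin-bundling protein gene, were also in both lists. In the list with pyruvate only there were 5: the ankyrin-repeat genes Ankrd23 (303 bases) and Ankrd2 (242 bases), Csrp3, which encodes muscle LIM protein (208 bases), the co-chaperone gene Bag3 (194 bases) and Pdlim7 (176 bases). Nebl, the nebulin relative nebulette, had 3 peaks (198 to 367 bases) and Pdlim1 had 4 (206 to 276 bases), in the list without pyruvate only. Tcap, which encodes the titin cap telethonin, the myozenin genes Myoz1, Myoz2 and Myoz3, Myot, Fhl1 and Capn3 had no row in either list.

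Of 10 M-band and titin-linked genes 5 had a peak in both lists. Smyd1, a methyltransferase gene needed for myosin assembly, had 3 peaks with pyruvate, the widest 461 bases, and 2 without pyruvate, the widest 359 bases. Trim55, a ubiquitin ligase gene of the MuRF family, had 3 with pyruvate (widest 445 bases) and 1 without pyruvate (391 bases). Myom3, another myomesin gene, had 4 with pyruvate and 2 without pyruvate. Obsl1 and Trim54 were in both lists as well. The myosin chaperone gene Unc45b (540 bases) had a peak in the list with pyruvate only, and Cmya5, which encodes myospryn (311 bases), in the list without pyruvate only.

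Of 8 genes of thin-filament ends and assembly 5 were in both lists. Tmod1, which encodes a pointed-end capping protein, had 5 peaks in each list, with the widest at 801 bases with pyruvate and 373 bases without pyruvate. Nrap, an anchoring protein gene, had 3 in each list, all overlapping, with the widest at 694 bases with pyruvate and 766 bases without pyruvate. Lmod3, Klhl40 (listed as Kbtbd5) and Klhl41 (listed as Kbtbd10), all tied to nemaline myopathy in human genetics, were in both lists. Lmod2, a leiomodin gene, had a peak of 444 bases in the list with pyruvate only.

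Of 7 intermediate filament and linker genes 5 were in both lists and none in 1 list only. Plec, which encodes the cytolinker plectin, had 6 peaks in each list, with the widest at 989 bases with pyruvate and 872 bases without pyruvate. Sync, which encodes the desmin-binding protein syncoilin, had 3 with pyruvate (286 to 786 bases) and 4 without pyruvate (265 to 564 bases), and each of them overlapped the other list. Dtna, Jup and Nes completed the group, while Synm and Vim had no row.

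**Figure D5:**
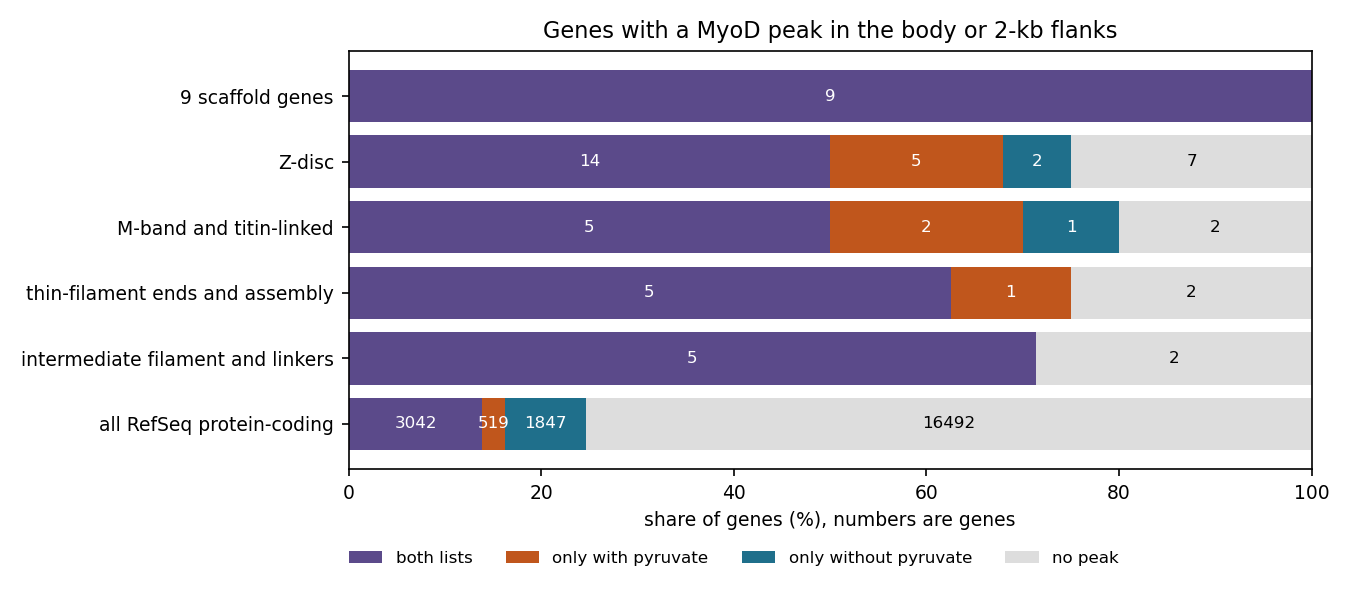
Share of genes (%) with a peak in both lists, in the list with pyruvate only, in the list without pyruvate only or in neither, for the 9 scaffold genes, 4 groups of related genes and all RefSeq protein-coding genes; numbers in the bars are genes. All 9 scaffold genes fall under both lists, beside 14 of 28 Z-disc genes and 3042 of all RefSeq protein-coding genes.

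Promoter-proximal peaks among the 53 genes were in both lists for 16, in the list with pyruvate only for 8 and in the list without pyruvate only for 2. With located start sites alone these counts were 13, 5 and 2. The shares over RefSeq protein-coding genes count flanks of unknown side, as do the counts of 16, 8 and 2. They were 4.11% in both lists, 1.30% in the list with pyruvate only and 3.76% in the list without pyruvate only. Over all genes named in the lists they were 18.7%, 6.01% and 17.7% in that order. With located start sites alone the shares of genes named were 10.4%, 3.1% and 9.25%. By peaks, 52 of 87 (59.8%) in the list with pyruvate and 54 of 81 (66.7%) in the list without pyruvate overlapped the other list at these genes. These shares are below the 71.5% of all gene-assigned peaks in the list with pyruvate and above the 46.9% in the list without pyruvate.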

How the data were processed

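MyoD ChIP-seq peak lists of 2 myotube libraries, 1 with and 1 without pyruvate, were analysed. Groups were taken from the sample titles. Per the submitters' processing notes, the tools were MACS2 2.1.1, Bowtie2 2.1.0 and bcl2fastq 2.19, and the build was mm9. Calling thresholds and the use of inputs are not stated in the labels. In the deposited tables a line pairs 1 peak with 1 region of a gene, which is its body or a flank of 2000 bases. Lines were reduced from 13076 to 11907 peaks with pyruvate and from 20902 to 19338 without pyruvate. Width is end minus start. Body and start were read from listed bodies and strands, or from 2 listed flanks (44 of 7262 gene IDs), and 1425 IDs have a flank of unknown side only. Peaks overlap when they share at least 1 base. Gene names outside the files come from RefSeq GRCm38.p6. In all shares over RefSeq protein-coding genes, a gene listed under an older symbol counts as having no peak.

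The 9 genes, the related genes and the measures were chosen with earlier results of these data known. Related genes were named when they had a peak, up to 6 per role and category by widest peak; others were named after their values were seen. The overlap code was tested at 1 shared base, on the list with pyruvate against a list made by shifting its own peaks. The stricter forms of overlap were not tested in this way. Alternatives were stricter overlap, wider peaks, equal list length, bodies alone and other start windows. Software was matplotlib 3.10.9, scipy 1.17.1, pandas 2.3.3, numpy 2.4.6 and Python 3.11.15. One of the related genes is counted in its group, but its own values are not reported here.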

Additional observations from a re-analysis of the deposited data

How the results depend on the processing

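Of 62 values recomputed under an alternative, 52 were close to those reported (counts within 1.5 times, shares within their interval) and 10 were not; of 48 densities of single genes, 34 were close. The causes were not tested beyond what the construction shows. With peaks of at least 250 bases, 9 peaks were left without pyruvate (12 with pyruvate), the genes with a peak in the list with pyruvate only became 2 (Actn2 and Ldb3, main count 0), Myom2 lost its proximal peak so that 0 genes had one with pyruvate only, the median density without pyruvate became 0.0692 per 10 kb (main 0.241), and the related genes in 1 list only became 5 with pyruvate and 7 without pyruvate, so the order of 8 and 3 turned. With the list without pyruvate limited to its widest peaks, again 2 genes had a peak with pyruvate only, and the median density without pyruvate became 0.138. The order of related genes in 1 list only held there, at 9 with pyruvate and 3 without pyruvate. With bodies alone Des counted as 1 gene without a peak, but it has no listed body and could not be scored. With a 10-kb window 2 genes, Myom1 and Ldb3, had no proximal peak. Myom2 then had one in both lists, and Actn2 had one in the list with pyruvate only. Shares of overlapping peaks ranged from 58.3% to 78.6% with pyruvate and from 66.7% to 91.7% without pyruvate, and the lower end of the interval without pyruvate was above the share of all gene-assigned peaks under 2 of 5 alternatives. The alternatives for genes with any peak were chosen after seeing the data. No paired analysis was possible because each condition has 1 library. Depth is unknown, which limits what a missing peak shows.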

Other observations

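Speg encodes a kinase of striated muscle related to titin, and its gene lies near Des on chromosome 1. Chosen after its values were seen, it had no peak in the list with pyruvate and 4 in the list without pyruvate, 209, 257, 168 and 164 bases wide, at the 33.2, 57.9, 10.9 and 8.87 percentiles of width in that list. Of all genes named in the lists, 35.0% had a peak in the list without pyruvate only. In that list 6041 of 11381 gene-assigned peaks had no partner, so a gene with peaks there alone is common. Obsl1, a cytoskeletal adaptor gene further along the same chromosome as Speg, had a flank peak in both lists, 357 bases wide with pyruvate and 275 bases wide without pyruvate, and a second of 174 bases in the list without pyruvate only. Read depth is unknown for both lists, and its part in these differences was not tested.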
